A study of Mus musculus with 12 samples.

Results

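Macrophages (MP) sorted from the normal mouse brain were compared with microglia (MG) sorted from the normal mouse brain, with 1 expression array for each. Both arrays came from C57BL/6 mice with the disease state given as normal, and the study sorted MP as CD11b+/CD45high and MG as CD11b+/CD45low cells. They are 2 of 12 arrays of a series that also holds 8 arrays of cells from mice bearing GL261 gliomas and 2 arrays of normal blood macrophages. The growth text of all 12 arrays, the normal ones included, names mice of 7 weeks implanted with GL261 cells and killed after 2 weeks. How many mice went into each array, and whether they were pooled, is not given in the sources used here. The comparison took the value of each gene on the MP array minus its value on the MG array, on the log2 scale, over 19938 genes. Of these, 7655 lay above background on MP, MG or both.

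Microglia are the resident macrophages of the brain tissue itself. They arise from yolk sac progenitors, renew locally, and depend on CSF1 receptor and TGF-beta signals and on the transcription factors PU.1 and SALL1. Macrophages at the borders of the brain, in the meninges, around vessels and in the choroid plexus, carry scavenger receptors and the mannose receptor and lack the microglial program. CD45 is low on resting microglia and high on border macrophages, monocytes, dendritic cells and neutrophils, and CD11b is shared by most of them, so a gate of CD11b+/CD45high can hold several cell types.

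Every value is a log2 signal from 1 array, so no replicate error and no p-value can be given. Olfactory receptor genes, which myeloid cells do not use, served as a yardstick. The 95th percentile of 1027 such genes was taken as background on each array, at 9.07 on normal MP and 9.43 on normal MG. Above it lay 36.3% of genes on MP and 27.1% on MG. Between the arrays these olfactory receptor genes had a median log2 difference of -0.42 with an SD of 0.39, and 1 of them passed the rule used below. The median difference was -0.22 over all genes and -0.06 over the genes above background on at least 1 array. A gene was called when it differed at least 2-fold and its brighter value lay above background. Where only the brighter value did, the fold is a bound taken against the background of the dimmer array and written as at least. Of the 6 blood arrays, 2 went against their labels. This touches what is given here over other arrays or over all 12, and not the deposited MP and MG values. Tumor blood Gr1+ and Gr1- cells had 11.16 and 11.49 for the myelin gene Mbp, and the Gr1- cells had 12.10 for the microglial gene Sall1. The normal blood macrophage high array had only 11.2% of genes above background.

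By this rule 649 genes, or 3.26% of all measured, were higher and 279, or 1.40%, were lower in MP than in MG. Among the genes above background on at least 1 array the shares were 8.48% and 3.64%. The counts of gene lists below stand beside these shares, and a count near them says nothing particular about its list. The higher genes were mostly near or under background in MG, since 539 of the 649 lay above background on MP only. The lower genes were mostly measured on both sides, with 172 of 279 above background on both arrays. A bound of at least 2-fold could be given for 266 of the higher and 201 of the lower genes. For 112 of the higher genes the MP value did not exceed the background of the MG array, and no fold is given for these. At least 8-fold differences as deposited numbered 95 among the higher genes and 0 among the lower genes.

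**Figure D1:**
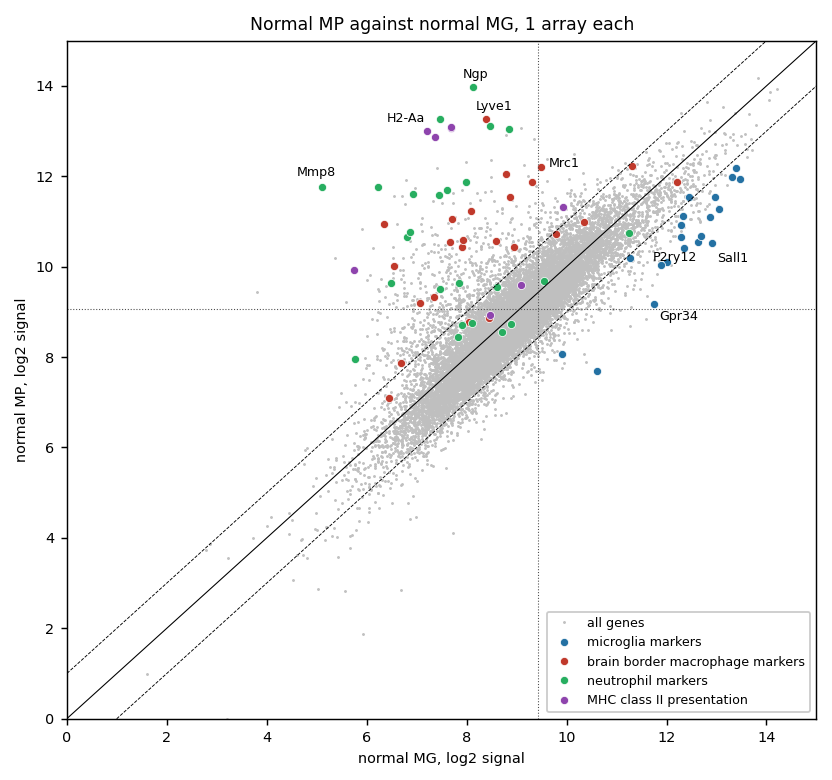
Log2 signal of each gene on the normal MP array (vertical axis) against the normal MG array (horizontal axis), with 4 marker lists in color, dotted lines at the background of each array and dashed lines at 2-fold. Microglia markers lie under the diagonal at high signals on both arrays, whereas border macrophage, neutrophil and MHC class II genes lie above it, mostly left of the MG background.

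The microglial program was lower in MP, but most of it was still well above background there. Of 20 measured microglia markers, 19 passed as lower and 0 as higher, and 18 lay above background in MP and 20 in MG. Their median log2 difference was -1.77, against -0.22 over all genes. Sall1, a transcription factor that maintains microglial identity, had a log2 signal of 10.51 in MP and 12.91 in MG, a 5.25-fold lower value. P2ry12, the purinergic receptor for ADP that guides microglial processes to injury, had 10.54 in MP and 12.63 in MG and was 4.28-fold lower. Gpr34, a receptor for lysophosphatidylserine, had the largest measured decrease, with 9.16 in MP and 11.76 in MG, or 6.02-fold. Siglech, a sialic acid-binding lectin of microglia, was at 10.09 in MP and 12.01 in MG. The crystallin gene Crybb1 was at 10.67 in MP and 12.69 in MG, and the adhesion receptor Adgrg1 at 10.41 in MP and 12.34 in MG. These 6 genes thus stood 3.77-fold to 6.02-fold lower in MP. No gene measured above background on both arrays was lower by more than Gpr34. Upk1b, a uroplakin gene, was at 7.69 in MP, under background, and at 10.61 in MG, at least 2.91-fold lower. The one marker that was not called was Mef2c, a transcription factor gene chosen here after its value was seen, with a log2 difference of -0.89. In sorted bulk RNA, fewer microglia in a sample and less microglial RNA per cell cannot be told apart.

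Macrophage genes of the brain borders stood out in MP. Of 24 measured markers, 16 passed as higher and 0 as lower, with 20 above background in MP and 5 in MG. The median difference was 2.33, and it was 1.13 over the 20 members above background on at least 1 array when dim values were raised to background. Lyve1, a hyaluronan receptor of lymphatic endothelium and perivascular macrophages, had 13.28 in MP and 8.39 in MG. It was at least 14.4-fold higher in MP, and on the other 10 arrays it lay between 6.44 and 7.99, under background on each. Cd163, the scavenger receptor for hemoglobin and haptoglobin complexes, showed the same pattern, with 11.54 in MP, 8.88 in MG and 6.64 to 7.94 on the other 10 arrays. Cd163 was at least 4.30-fold higher in MP. Both genes were thus above background on the normal MP array alone. Mrc1, the mannose receptor, was above background on both arrays, with 12.20 in MP and 9.48 in MG, a 6.55-fold difference. F13a1, the A subunit of coagulation factor XIII, had 12.06 in MP and 8.78 in MG, at least 6.15-fold higher. Dab2, an endocytic adaptor, had 11.88 in MP and 9.31 in MG, at least 5.46-fold higher. Siglec1, the sialoadhesin gene, had 11.23 in MP and 8.09 in MG, at least 3.46-fold higher. Ccl8, Ccl24, Colec12 and Cd209g lay below background on both arrays. Mrc1, Lyve1, Cd163 and Siglec1, which define these macrophages, were thus present on the array labelled macrophage. Unlike Lyve1 and Cd163, some were not particular to it. Mrc1, F13a1, Dab2 and Siglec1 were above background on 4, 7, 6 and 6 of the other 10 arrays. Siglec1 reached 11.92 on tumor brain Gr1+ cells, above its value in MP.

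**Figure D2:**
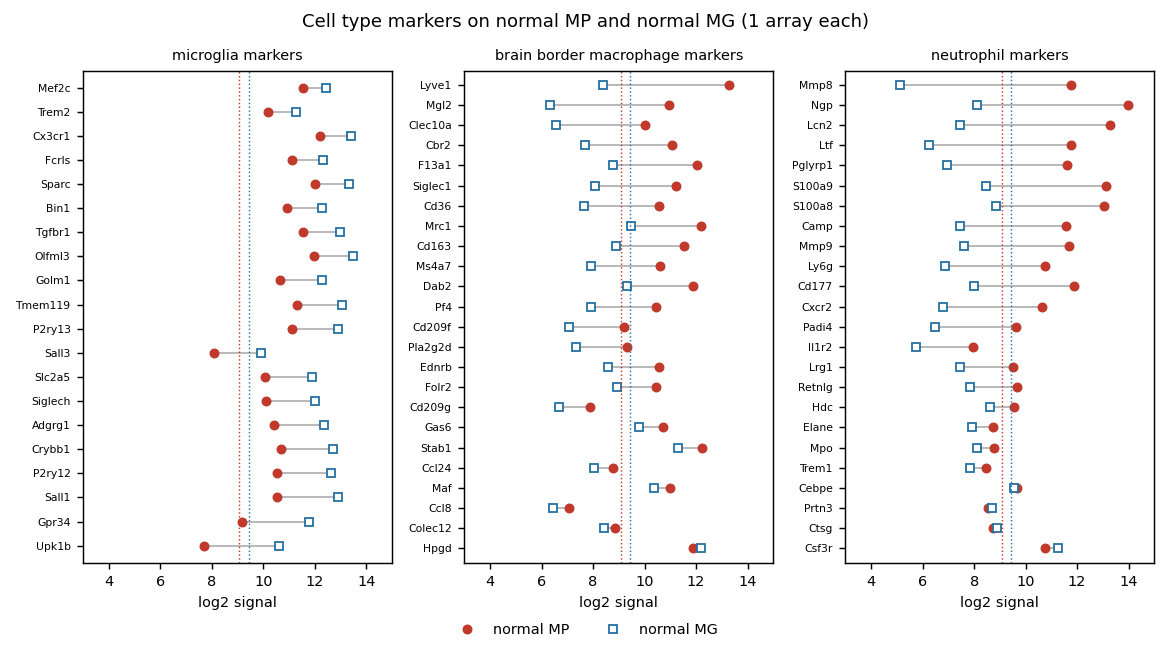
Log2 signal (horizontal axis) of the measured markers of 3 cell types on normal MP (filled circles) and normal MG (open squares), 1 array each, with dotted lines at each array's background. In MP, 18 of 20 microglia, 20 of 24 border macrophage and 18 of 24 neutrophil markers lie above background. In MG the numbers are 20, 5 and 2.

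The MP array also carried genes of neutrophils, granulocytes with the same surface markers as the MP gate. Of 24 measured neutrophil markers, 18 lay above background in MP and 2 in MG, and 15 were at least 2-fold higher and 0 lower. Their median difference was 3.49, and 2.16 over the 18 above background on at least 1 array with dim values raised. Ngp, a protein of neutrophil secondary granules, had 13.97 in MP and 8.13 in MG. With at least 23.2-fold it had the largest bound of all genes. Lcn2, the siderophore-binding lipocalin of the same granules, had 13.27 in MP and 7.46 in MG, at least 14.3-fold higher. Ltf, the iron-binding lactoferrin, had 11.76 in MP and 6.23 in MG, at least 5.02-fold higher. Ltf was at most 8.72 on the other 10 arrays and under background on each, while Ngp and Lcn2 reached 12.32 and 12.52 there. S100a9 and S100a8, which encode the subunits of calprotectin, had 13.11 and 13.05 in MP and 8.46 and 8.84 in MG, at least 12.7-fold and 12.2-fold higher. Cd177, a surface glycoprotein of neutrophils, had 11.86 in MP and 7.99 in MG, at least 5.38-fold higher. The collagenase Mmp8 had the largest deposited difference of the list, with 11.76 in MP and 5.11 in MG, and a bound of at least 5.00-fold. The gelatinase Mmp9 had 11.70 in MP and 7.61 in MG, at least 4.79-fold higher. The genes of primary granules, made earlier in the life of a neutrophil, were different. Elane, Mpo, Prtn3 and Ctsg were below background on both arrays. The 18 members above background in MP held the calprotectin genes and genes of the later granules, but also other kinds of neutrophil gene, named here after their values were seen. Ly6g, the surface protein by which mouse neutrophils are sorted, had 10.76 in MP and 6.87 in MG, and Padi4, the histone-citrullinating enzyme, had 9.63 in MP and 6.49 in MG. Csf3r, the G-CSF receptor, Cebpe, a transcription factor of granulocytes, and Hdc, which makes histamine, were above background in MP without a call, with differences of -0.51, 0.13 and 0.95. The part of neutrophil RNA in the other differences was not tested.

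Promoters of the list members were read from RefSeq on GRCm38.p6, as 250 bases before to 50 bases after each gene start, and searched on both strands for 2 motifs. An entry was found for 469 of the 616 list genes. The counts below are of promoters and not of genes, since a gene can have several. PU.1 drives the macrophage and neutrophil lineages, and C/EBP factors drive granule genes. The letters GAGGAAGT, a PU.1 motif, stood in 3.20% of all 32851 promoters, and in 7 of 25 promoters of neutrophil markers and 0 of 23 of microglia markers. They also stood in 4 of 19 promoters of monocyte markers and 2 of 22 of border macrophage markers. The neutrophil markers with this match included Elane, Mpo and Prtn3, which were below background on both arrays. The letters TTGCNNAA, a C/EBP motif, stood in 10.8% of all promoters, in 7 of 25 promoters of neutrophil markers and in 4 of 23 of microglia markers. For monocyte and border macrophage markers these counts were 1 of 19 and 2 of 22. A match is a description of letters and not a binding site. Among the neutrophil genes that led the comparison, Ngp had C/EBP matches at positions -138 and -11, Ltf at -75, and Mmp8 at -19, with a PU.1 match at -221, counting back from -1 at the base before the start to the match's leftmost base. P2ry12 had a C/EBP match at -204. The 250 bases before the start are shown for these 4 genes to set granule genes beside a microglial one, with the matched letters in capitals on the gene's strand. Ngp lies at chr9:110419558-110419807 (+), Ltf at chr9:111019042-111019291 (+), Mmp8 at chr9:7558179-7558428 (+) and P2ry12 at chr3:59262986-59263235 (-).
Ngp: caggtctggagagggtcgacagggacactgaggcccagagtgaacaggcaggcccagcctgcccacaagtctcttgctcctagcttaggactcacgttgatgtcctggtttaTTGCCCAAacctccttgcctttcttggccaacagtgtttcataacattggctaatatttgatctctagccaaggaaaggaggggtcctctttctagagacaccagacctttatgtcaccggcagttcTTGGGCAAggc
Ltf: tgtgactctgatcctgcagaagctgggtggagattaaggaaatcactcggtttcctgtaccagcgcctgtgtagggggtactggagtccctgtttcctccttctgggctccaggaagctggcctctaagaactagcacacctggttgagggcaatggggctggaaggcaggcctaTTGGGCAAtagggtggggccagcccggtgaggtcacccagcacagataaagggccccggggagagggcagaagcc
Mmp8: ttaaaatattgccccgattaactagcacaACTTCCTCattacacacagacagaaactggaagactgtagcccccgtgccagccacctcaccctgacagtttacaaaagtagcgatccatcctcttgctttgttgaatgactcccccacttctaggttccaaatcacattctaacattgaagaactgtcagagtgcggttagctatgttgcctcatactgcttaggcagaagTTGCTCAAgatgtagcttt
P2ry12: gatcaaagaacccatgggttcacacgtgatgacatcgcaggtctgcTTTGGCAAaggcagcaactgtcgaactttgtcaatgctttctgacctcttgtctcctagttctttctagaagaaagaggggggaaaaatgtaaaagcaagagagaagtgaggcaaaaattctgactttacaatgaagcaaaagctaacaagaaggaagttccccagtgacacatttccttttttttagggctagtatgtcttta

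Monocyte genes were likewise higher in MP. Of 15 measured monocyte markers, 12 passed as higher and 0 as lower, and 12 lay above background in MP and 0 in MG. The median difference was 3.18 over the 15, and 0.91 over the 12 above background with dim values raised. Nr4a1, an orphan nuclear receptor needed by patrolling monocytes, had 11.68 in MP and 8.49 in MG, at least 4.72-fold higher. Nr4a1 is also counted among the immediate early genes below. Chil3, the chitinase-like protein Ym1, had 11.56 in MP and 6.54 in MG, at least 4.38-fold higher. Ccr2, the receptor that brings monocytes out of the bone marrow, had 11.47 in MP and 8.28 in MG, at least 4.09-fold higher. The fibronectin gene Fn1 had 11.40 in MP and 7.73 in MG, at least 3.91-fold higher, and Itgal, the alpha chain of LFA-1, had 10.94 in MP and 6.61 in MG, at least 2.83-fold higher. Ace, the angiotensin-converting enzyme gene, had 10.47 in MP and 7.11 in MG. These 6 genes were under background in MG. Vcan, Gpr141 and Cd300e were below background on both arrays.

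Dendritic cell markers were split. Of 14 measured, 6 were at least 2-fold higher in MP and 0 lower, and the other 8 lay below background on both arrays. Cd209a, a lectin of monocyte-derived dendritic cells, had 10.94 in MP and 7.09 in MG, at least 2.84-fold higher. Itgax, which encodes CD11c, had 11.29 in MP and 8.71 in MG, at least 3.62-fold higher. Kmo, an enzyme of tryptophan breakdown, had 10.20 in MP and 5.36 in MG, at least 1.70-fold higher. Flt3, the growth factor receptor of the lineage, had 9.57 in MP, just above the MG background, and 7.42 in MG, and the ectopeptidase gene Dpp4 had 9.86 in MP and 6.53 in MG, at least 1.35-fold higher. Xcr1, Clec9a, Itgae and Batf3, genes of cross-presenting dendritic cells, and Zbtb46, the transcription factor of the conventional lineage, were among those below background.

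Presentation on MHC class II was one of the clearest differences. Of 8 measured genes, 6 were higher in MP and 0 lower, with 7 above background in MP and 1 in MG, and a median difference of 4.78. Over the 7 above background with dim values raised, the median was 3.43. H2-Aa and H2-Ab1, the alpha and beta chains of I-A, had 13.002 and 12.86 in MP and 7.20 and 7.36 in MG, at least 11.9-fold and 10.7-fold higher. H2-Eb1, the I-E beta chain, had 13.07 in MP and 7.68 in MG, at least 12.5-fold higher. Cd74, the invariant chain that guards the peptide groove, had 13.09 in MP and 7.68 in MG, at least 12.6-fold higher. Ciita, the transactivator of these genes, had 9.93 in MP and 5.75 in MG, at least 1.41-fold higher. H2-DMa, a chain of the peptide exchange factor, was above background on both arrays, with 11.33 in MP and 9.93 in MG, and 2.65-fold higher. On the other 10 arrays H2-Aa lay between 11.69 and 12.94, so of the 12 arrays normal MG alone had H2-Aa below background. The H2 genes belong to a family of similar sequences, and probes shared among them were not examined.

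The Y box, to which NF-Y binds beside the CIITA complex, was searched as well, a motif chosen after the values were seen. Its letters CTGATTGG stood in 4.10% of all promoters on either strand and in 3 of 8 promoters of the MHC class II list. The matches were at -51 in H2-Aa, -62 in H2-Eb1 and -46 in H2-Oa, a chain of the modulator H2-O that was below background on both arrays. The promoters of H2-Aa and H2-Eb1 are shown because both genes were far higher in MP, with the Y box letters in capitals. H2-Aa lies at chr17:34287824-34288073 (-) and H2-Eb1 at chr17:34305617-34305866 (+) on GRCm38.p6.
H2-Aa: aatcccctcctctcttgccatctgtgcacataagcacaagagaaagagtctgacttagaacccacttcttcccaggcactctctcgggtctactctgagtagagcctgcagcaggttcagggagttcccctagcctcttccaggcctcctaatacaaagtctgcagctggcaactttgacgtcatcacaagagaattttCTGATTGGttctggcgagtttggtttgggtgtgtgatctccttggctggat
H2-Eb1: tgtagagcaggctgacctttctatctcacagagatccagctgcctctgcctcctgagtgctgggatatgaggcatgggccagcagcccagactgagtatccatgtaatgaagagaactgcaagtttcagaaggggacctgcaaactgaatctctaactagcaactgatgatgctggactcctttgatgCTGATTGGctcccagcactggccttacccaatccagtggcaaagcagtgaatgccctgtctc

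No marker of astrocytes, oligodendrocytes, neurons, pericytes and fibroblasts, or the choroid plexus and ependyma reached 2-fold as deposited. The part of transcripts of these cells in the other values was not tested. The lists held 8 markers of astrocytes, 6 of oligodendrocytes, 8 of neurons, 11 of pericytes and fibroblasts and 7 of the choroid plexus and ependyma. Mbp, myelin basic protein, had 12.70 in MP and 12.60 in MG, and Mobp, another myelin protein, 12.04 in MP and 12.10 in MG. The astrocytic glutamate transporter Slc1a2 had 12.37 in MP and 12.31 in MG. These 3 genes were higher on both normal brain arrays than on any other of the 12, where they reached at most 11.49, 10.77 and 11.90. The connexin genes Gja1 and Gjb6 had 10.76 and 10.05 in MP and 10.20 and 9.46 in MG. The astrocyte genes Slc1a3 and S100b had log2 differences of -0.39 and 0.41. Some of the neuron genes differed more. Snap25, a synaptic vesicle fusion protein, had 10.60 in MP and 9.82 in MG, Slc17a7, a vesicular glutamate transporter, 10.12 in MP and 9.30 in MG, and Tubb3, a neuronal tubulin, 9.33 in MP and 8.65 in MG. The other neuron genes above background, Rbfox3 and Gad1, had differences of 0.12 and -0.16. Snap25 and Slc17a7 passed 2-fold after cyclic loess normalization, with log2 differences of 1.02 each. The 5 neuron genes above background on at least 1 array had a median difference of 0.68, and of -0.11 with dim values raised. Gfap and Aqp4 of astrocytes, Mog and Mag of oligodendrocytes and Syt1 of neurons were below background on both arrays. The astrocyte list had summed linear signals of 11422 in MP and 10335 in MG, the oligodendrocyte list of 12527 in MP and 12273 in MG, and the neuron list of 5581 in MP and 4157 in MG. Of the pericyte and fibroblast markers 7 of 11, and of the choroid plexus and ependymal markers 5 of 7, were below background on both arrays.

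Lymphocyte genes were seldom called and mostly dim. Of 13 measured T cell markers 0 were higher and 1 lower, of 15 B cell markers 0 either way, and of 13 NK cell markers 1 higher. Cd3d, Cd3g, Cd79a, Ms4a1, Pax5, Ncr1 and Klrb1c were below background on both arrays, as were 8 of the T cell, 13 of the B cell and 12 of the NK cell markers in all. Cd4, which some macrophages also express, had 9.67 in MP and 9.67 in MG, Bcl11b, a T cell transcription factor, 9.27 in MP and 9.70 in MG, and Vpreb3, of B cell precursors, 9.50 in MP and 9.62 in MG. These 3 were above background on both arrays and on each of the other 10, so they did not set MP or MG apart. Of MP and MG, Cd3e and Cd8a were just above background in MP only, at 9.24 and 9.12. They were above it on 10 and 9 of the other 10 arrays. The B cell scaffold gene Bank1 was above it in MG, at 9.79, and not in MP, and on 5 of the other 10. Il7r, the receptor chain for interleukin 7, was the T cell gene that was lower, with 8.33 in MP and 9.94 in MG, at least 1.83-fold. Klrd1, an NK cell receptor chain, had 9.16 in MP and 8.02 in MG, and its MP value did not exceed the MG background. Of the 8 mast cell and basophil markers Kit was called, at 9.27 in MP and 7.89 in MG. Mcpt4, a mast cell protease, had 9.44 in MP and 9.61 in MG and was above background on all 12 arrays. Cpa3 and Mcpt8 were below background in both MP and MG. Of 9 endothelial markers 1 was higher, the phospholipid transfer protein gene Pltp, with 11.78 in MP and 9.38 in MG, at least 5.07-fold. Cdh5, Flt1 and Kdr, which define endothelium, were below background on both arrays. The tight junction gene Cldn5 had 9.62 in MP and 10.02 in MG and was above background on all 12 arrays. On the other 10 it lay between 9.53 and 10.68. The glucose transporter gene Slc2a1 had 10.19 in MP and 9.80 in MG and was above background on 11 of the 12. Gp9 was the 1 lower gene of 4 platelet markers, with 9.05 in MP and 10.07 in MG, a call lost with centring and with cyclic loess, and none of 4 erythroid markers was called. The sort genes moved less than 2-fold. Ptprc, which encodes CD45, had 12.01 in MP and 11.38 in MG, and Itgam, which encodes CD11b, had 12.23 in MP and 12.81 in MG.

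**Figure D3:**
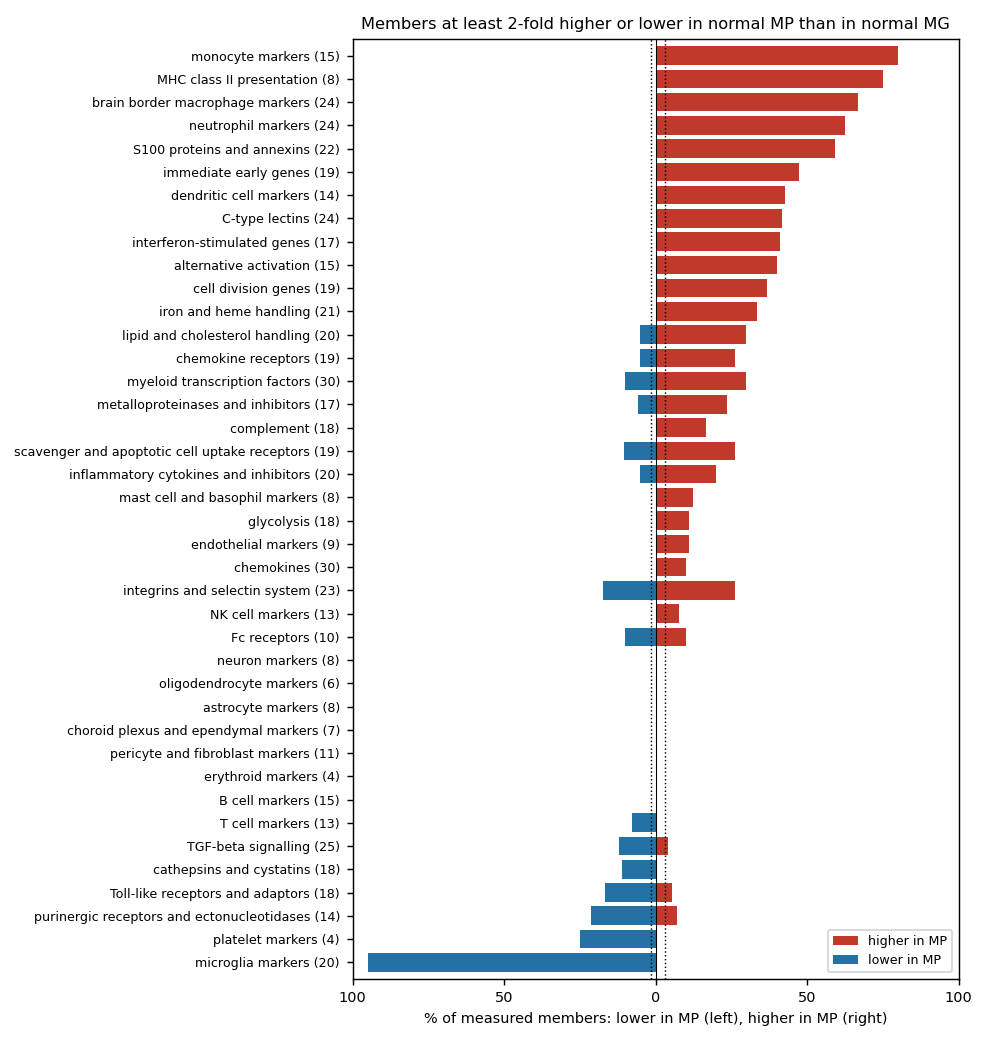
Share of measured members (horizontal axis, in percent) at least 2-fold higher (right) or lower (left) in normal MP than in normal MG for 40 gene lists, with the number of measured members in parentheses and dotted lines at 3.26% and 1.40%, the shares over all genes. Monocyte markers, with 12 of 15 higher, and microglia markers, with 19 of 20 lower, are at the ends.

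Transcription factors of the myeloid lineages went both ways. Of 30 measured, 9 were higher and 3 lower in MP, and 12 were above background without a call. Among the higher genes, Nr4a1 is given above. Klf2, a Krüppel-like factor that restrains activation, had 11.05 in MP and 8.89 in MG, at least 3.07-fold higher. Cebpb, a C/EBP factor of monocytes and macrophages, had 10.86 in MP and 9.25 in MG, at least 2.69-fold higher. Runx3 had 10.40 in MP and 6.99 in MG, at least 1.95-fold higher. The lower genes were Sall1, its relative Sall3, which was named after its value was seen, and Bhlhe41, a basic helix-loop-helix factor with 10.88 in MP and 12.36 in MG. Spi1, which encodes PU.1 and was named after its value was seen, had a log2 difference of 0.58 and was not called.

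Among genes of TGF-beta and purinergic signalling a few were lower in MP and most were not called. Of 25 measured genes of TGF-beta signalling, 3 were lower and 1 higher, 13 were above background without a call and 8 lay below background on both arrays. Tgfbr1, the type I receptor, had 11.54 in MP and 12.96 in MG and was 2.69-fold lower. Itgb5, an integrin chain that helps to activate latent TGF-beta, had 11.81 in MP and 12.98 in MG, and the co-receptor gene Eng had 9.61 in MP and 10.91 in MG. These were 2.25-fold and 2.47-fold lower, and Itgb5 was under 2-fold after quantile normalization. The type II receptor gene Tgfbr2, named after its value was seen, had a difference of -0.56. Smad3, Smad7 and Acvr1 had differences of -0.74, -0.89 and -0.88 and were not called. Of 14 purinergic receptors and ectonucleotidases, 3 were lower and 1 higher. The higher gene was P2ry14, a receptor for UDP-glucose, with 9.16 in MP, under the MG background, and 8.10 in MG, and its call was lost with cyclic loess. P2ry13, a receptor for ADP, had 11.11 in MP and 12.88 in MG and was 3.42-fold lower. Entpd1, the ectonucleotidase CD39, had 11.41 in MP and 12.61 in MG and was 2.29-fold lower. P2rx4, an ATP-gated channel, had 10.63 in MP and 9.70 in MG, just under 2-fold.

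The genes for migration differed in kind. Of 19 chemokine receptors, 5 were higher and 1 lower in MP, and 11 were below background on both arrays. Cxcr4, the CXCL12 receptor that retains cells in marrow, had 11.63 in MP and 7.73 in MG, at least 4.57-fold higher. Cxcr2, the neutrophil receptor for CXC chemokines, had 10.65 in MP and 6.81 in MG, at least 2.32-fold higher. Ccr1 had 9.78 in MP and 8.24 in MG, and Ccr7, the receptor for homing to lymph nodes, had 9.08 in MP, close to background, and 8.03 in MG. Cx3cr1, the fractalkine receptor by which microglia are often traced, was the lower gene, with 12.19 in MP and 13.39 in MG, or 2.31-fold, and was under 2-fold after quantile normalization. Of 30 chemokines, 3 were higher and 0 lower, and 20 were below background on both. Cxcl16, a membrane-bound ligand of CXCR6, had 11.20 in MP and 9.56 in MG and was 3.13-fold higher. Pf4, a chemokine of platelets and border macrophages, had 10.43 in MP and 7.91 in MG, at least 2.00-fold higher. Ccl6 had 11.44 in MP and 10.45 in MG, a difference of 0.99.

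Adhesion molecules also went both ways. Of 23 integrins and members of the selectin system, 6 were higher and 4 lower in MP, but only 2 lower after centring or cyclic loess. Itga4, the VLA-4 chain used to enter the brain, had 11.57 in MP and 6.71 in MG, at least 4.40-fold higher. Cd44, a hyaluronan receptor of infiltrating leukocytes, had 11.66 in MP and 8.36 in MG, at least 4.68-fold higher. Selplg, the P-selectin ligand, was lower, with 11.82 in MP and 13.21 in MG, or 2.62-fold. Of 24 C-type lectins 10 were higher and 0 lower. Besides Mrc1 and Cd209a they included Clec12a, an inhibitory receptor of myeloid cells, with 11.38 in MP and 6.76 in MG, at least 3.85-fold higher. Clec7a, the beta-glucan receptor, had 11.09 in MP and 8.90 in MG, at least 3.14-fold higher. Mgl2, a galactose-type lectin, had 10.94 in MP and 6.35 in MG, at least 2.85-fold higher, and Clec4a1 had 10.30 in MP and 7.22 in MG. Some of these genes, such as Mgl2 and Clec10a, have close paralogs. Of the 15 measured genes of alternative activation, 6 were higher, among them Chil3, Mrc1, Cd163, Mgl2 and Clec10a, which had 10.00 in MP and 6.55 in MG. Retnla was below background on both arrays.

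**Figure D4:**
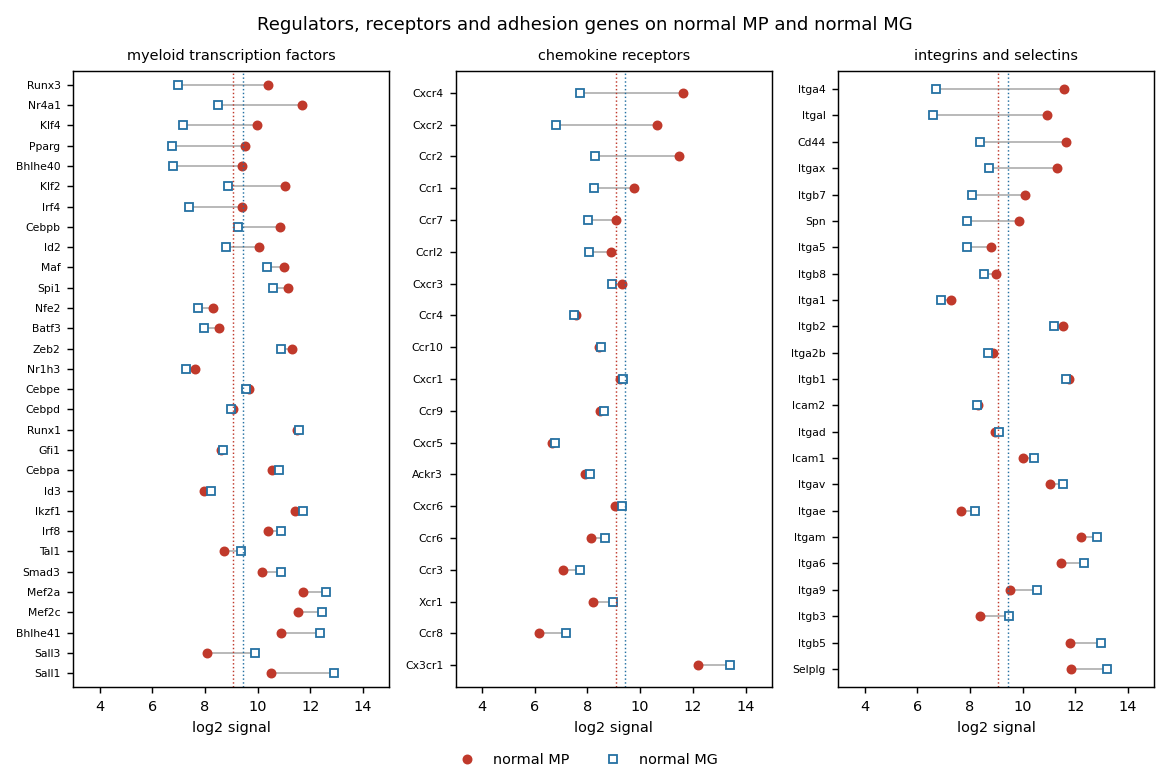
Log2 signal (horizontal axis) of measured transcription factors, chemokine receptors and adhesion genes on normal MP (filled circles) and normal MG (open squares), 1 array each, with dotted lines at each array's background. Sall1, Cx3cr1 and Selplg are at the bottom of their panels, being lower in MP, and Runx3, Cxcr4 and Itga4 are at the top, being higher in MP.

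The receptors of innate recognition were mostly shared. Of 18 Toll-like receptors and adaptors, 3 were lower and 1 higher in MP. Tlr3, the endosomal receptor for double-stranded RNA, had 9.04 in MP, under background, and 11.07 in MG, at least 3.99-fold lower. Tlr7, the receptor for single-stranded RNA, had 11.24 in MP and 12.64 in MG and was 2.63-fold lower. Tlr6 had 9.31 in MP and 10.37 in MG, and was under 2-fold with the arrays centred on their medians. Tlr8, another receptor for RNA, which was named after its value was seen, was the higher gene, with a deposited difference of 2.77 and an MP value of 9.37 against 6.60 in MG. Of 10 Fc receptors, Fcgr4 was higher, with 9.64 in MP and 8.46 in MG, and the Fc receptor-like microglial gene Fcrls was lower, with 11.11 in MP and 12.33 in MG, a call lost with cyclic loess. Fcgr1, Fcgr2b, Fcgr3 and Fcer1g had differences between -0.80 and 0.40. Of 18 complement genes, 3 were higher and 0 lower. Cfp, which encodes properdin, had 11.07 in MP and 8.02 in MG, at least 3.12-fold higher, and C4b had 10.59 in MP and 7.93 in MG, at least 2.23-fold higher. C1qa and C1qc, chains of the classical initiator C1q, had differences of -0.74 and -0.61, under 2-fold.

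Interferon-stimulated and immediate early genes were higher in part, and the inflammatory cytokines as a list were not. Of 17 interferon-stimulated genes, 7 were higher and 0 lower, and 10 lay below background on both arrays. Ifitm3, a restriction factor for viral entry, had 12.37 in MP and 8.48 in MG, at least 7.65-fold higher. The other named members had small bounds. Irf7, a regulator of the interferon response, had 10.40 in MP and 7.49 in MG, at least 1.95-fold higher, and Oasl2 had 9.84 in MP and 7.06 in MG, at least 1.33-fold higher. Of 20 inflammatory cytokines and their inhibitors, 4 were higher and 1 lower, and 10 were below background on both arrays. Their median over the 10 above it was 0.002, and -0.24 with dim values raised. Il1b had 10.20 in MP and 7.64 in MG, at least 1.70-fold higher, whereas the related Il1a had 7.88 in MP and 10.39 in MG, at least 2.49-fold lower. The NF-kappaB inhibitor Nfkbia was above background on both arrays, with 10.50 in MP and 9.45 in MG. Il6 and Il10 were below background on both. Of 19 immediate early genes, which respond within minutes to stimuli that include the handling of tissue, 9 were higher and 0 lower, and 10 were not called. The 9 included Nr4a1, given above as a monocyte marker. Dusp1 had 11.48 in MP and 8.91 in MG, at least 4.12-fold higher. Fos had 11.35 in MP and 8.997 in MG, at least 3.77-fold higher, and Egr1 had 11.10 in MP and 9.27 in MG, at least 3.16-fold higher. Jun, with 11.53 in MP and 10.73 in MG, did not reach 2-fold. The part of sample handling in these values was not tested.

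The genes of iron and lipid handling, some of which are also border macrophage or neutrophil markers, were more often higher than lower in MP. Of 21 genes of iron and heme handling, 7 were higher and 0 lower, among them Lcn2, Ltf and Cd163. Hmox1, which breaks down heme, had 10.92 in MP and 9.34 in MG, at least 2.81-fold higher. Ftl1, a ferritin light chain, had 12.29 in MP and 11.18 in MG and was 2.16-fold higher, and the heme transporter Slc48a1 had 10.95 in MP and 9.89 in MG and was 2.08-fold higher. Of 20 lipid and cholesterol genes, 6 were higher and 1 lower. Apoe, the apolipoprotein of brain macrophages and astrocytes, had 13.41 in MP and 12.29 in MG and was 2.16-fold higher as deposited, but under 2-fold after cyclic loess normalization, as was Ftl1. Scarb1, the HDL receptor, had 11.43 in MP and 10.29 in MG, and Cd36, a scavenger receptor for oxidized lipids, had 10.55 in MP and 7.66 in MG, at least 2.17-fold higher. Scarb2, a lysosomal membrane protein of the same family, was lower, with 10.96 in MP and 12.10 in MG. Cathepsins and cystatins were slightly lower as a list. Of 18, 2 were lower and 0 higher, or 1 lower with centring or quantile normalization and 4 with cyclic loess. The median difference was -0.54, against -0.22 over all genes. Ctsf had 9.62 in MP and 10.94 in MG and Ctsl 11.51 in MP and 12.52 in MG, or 2.50-fold and 2.02-fold lower. Ctsd, Lgmn and Cst3 had differences of -0.99, -0.87 and -0.66.

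The 22 calcium-binding S100 proteins and annexins had 13 members higher and 0 lower. S100a11 had the largest difference of all genes measured above background on both arrays, with 12.37 in MP and 9.60 in MG, or 6.83-fold. Anxa5, the phosphatidylserine-binding annexin, had 11.64 in MP and 9.51 in MG and was 4.38-fold higher. Anxa1, an annexin that dampens neutrophil entry, had 11.92 in MP and 6.79 in MG, at least 5.60-fold higher, and S100a10 had 11.23 in MP and 8.61 in MG, at least 3.46-fold higher. Of 17 metalloproteinases and inhibitors, 4 were higher and 1 lower. Mmp8, Mmp9 and Mmp25, which neutrophils make, were among the higher genes, and the sheddase gene Adam10 was the lower gene, with 11.40 in MP and 12.67 in MG, or 2.41-fold. Of 19 receptors for scavenging and for uptake of apoptotic cells, 5 were higher and 2 lower. The receptor tyrosine kinases Axl and Mertk, which take up apoptotic cells through the bridging ligand GAS6, went opposite ways. Axl had 12.25 in MP and 9.15 in MG, at least 7.05-fold higher, and Mertk had 11.05 in MP and 12.65 in MG, 3.04-fold lower. Gas6 had 10.71 in MP and 9.78 in MG, under 2-fold. Havcr2, which encodes TIM-3, had 10.00 in MP and 11.29 in MG and was 2.44-fold lower.

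Of 19 cell division genes, 7 were called higher in MP and 0 lower, but at signals close to background. The 9 above background had a median difference of 1.71 as deposited and -0.11 with dim values raised, and 0 had a bound of at least 2-fold. Top2a, the topoisomerase of dividing cells, had 10.13 in MP and 7.49 in MG, at least 1.62-fold higher. Mki67, the Ki-67 gene, had 9.87 in MP and 7.04 in MG, at least 1.35-fold higher. For Ccna2, Kif11 and Mcm5 the MP value did not exceed the MG background. Cdk1, Birc5 and Ccnb2 were below background on both arrays. Of 18 glycolytic genes, with 17 above background, 2 were higher and 0 lower. Over all genes above background, 8.48% were higher, so this count does not set the list apart. The glucose transporter gene Slc2a3 had 10.29 in MP and 7.79 in MG, at least 1.80-fold higher, and Pfkp had 9.92 in MP and 8.19 in MG, at least 1.40-fold higher. Ldha, Pkm and Aldoa had differences of 0.86, 0.73 and 0.53.

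Further genes led the comparison outside the lists. Among genes above background on both arrays, those higher in MP included 2 for actin-binding proteins. Lsp1 of leukocytes had 12.50 in MP and 10.15 in MG, or 5.09-fold, and Flna, filamin A, had 11.89 in MP and 9.62 in MG, or 4.85-fold. Ms4a6c, a tetraspanning membrane protein of macrophages, had 11.93 in MP and 10.05 in MG. The antimicrobial ribonuclease Rnase6 had 11.37 in MP and 9.54 in MG. Srebf2, the regulator of cholesterol synthesis, had 11.53 in MP and 9.76 in MG, and Tkt, an enzyme of the pentose phosphate pathway, had 11.46 in MP and 9.80 in MG. Sh3bgrl, Mpp1 and the proteoglycan Sdc3 had differences of 1.90, 1.76 and 1.73. Among genes above background in MP only, Cybb, the catalytic subunit of the phagocyte NADPH oxidase, had 13.07 in MP and 9.10 in MG, at least 12.4-fold higher. Fxyd5, a regulator of the sodium pump, had 12.92 in MP and 8.78 in MG, at least 11.2-fold higher. The lysozyme gene Lyz2, whose close copy Lyz1 may share signal, had 12.83 in MP and 9.34 in MG, at least 10.5-fold higher.

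Other genes outside the lists were lower in MP. Gal3st4, a sulfotransferase gene, had 9.35 in MP and 11.62 in MG, or 4.82-fold. Fkbp7, a prolyl isomerase of the endoplasmic reticulum, had 9.10 in MP and 11.29 in MG, or 4.55-fold. The phosphodiesterase gene Pde3b had 9.59 in MP and 11.71 in MG, or 4.34-fold, and Nav3 had 10.04 in MP and 12.09 in MG, or 4.15-fold. Lag3, an inhibitory receptor that binds MHC class II, had 9.51 in MP and 11.46 in MG, or 3.87-fold. Rtn4rl1, of the Nogo receptor family, had 9.84 in MP and 11.80 in MG, or 3.89-fold. Of the genes above background in MG only, the small nucleolar RNA Snora52 had 8.84 in MP and 11.59 in MG, at least 5.74-fold lower. Ecscr, a membrane protein known from endothelium, had 8.68 in MP and 11.27 in MG, at least 4.60-fold lower. Rapgef5, Sgce, Fcrl1, Zadh2, Cfap74, Abcg2 and Fam210a were at least 2.56-fold to 3.64-fold lower.

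The same pair of gates had also been sorted from the tumors, with 1 array each and no array in common with the normal pair. There 0 genes were called higher and 1 lower in tumor MP than in tumor MG. That gene was Snora52, with a log2 difference of -2.43 in the tumor pair and -2.75 in the normal pair. Of the genes higher in normal MP, 355 of 649 lay above background on tumor MP and 287 on tumor MG. Of the lower genes, 215 of 279 lay above background on tumor MP and 175 on tumor MG. The 20 microglia markers had a median log2 signal of 11.40 on tumor MP and 11.21 on tumor MG. The 24 neutrophil markers had 8.50 on tumor MP and 8.28 on tumor MG, where 3 of them lay above background on each array. Across the 12 arrays, normal MP stood alone in Lyve1, Cd163 and Ltf, which were above background there only. Pf4, Clec10a, the neuron genes Slc17a7, Tubb3 and Rbfox3 and the astrocyte gene S100b were also above background there only, at lower signals. On normal blood macrophage high, where background was 10.09, Slc17a7 had 9.86 and Rbfox3 9.88. Rbfox3 was thus higher on that array than on normal MP, where it had 9.2 against a background of 9.07. The calprotectin genes of normal MP were also above background on tumor blood macrophage high, tumor blood Gr1+ and normal blood macrophage low.

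**Figure D5:**
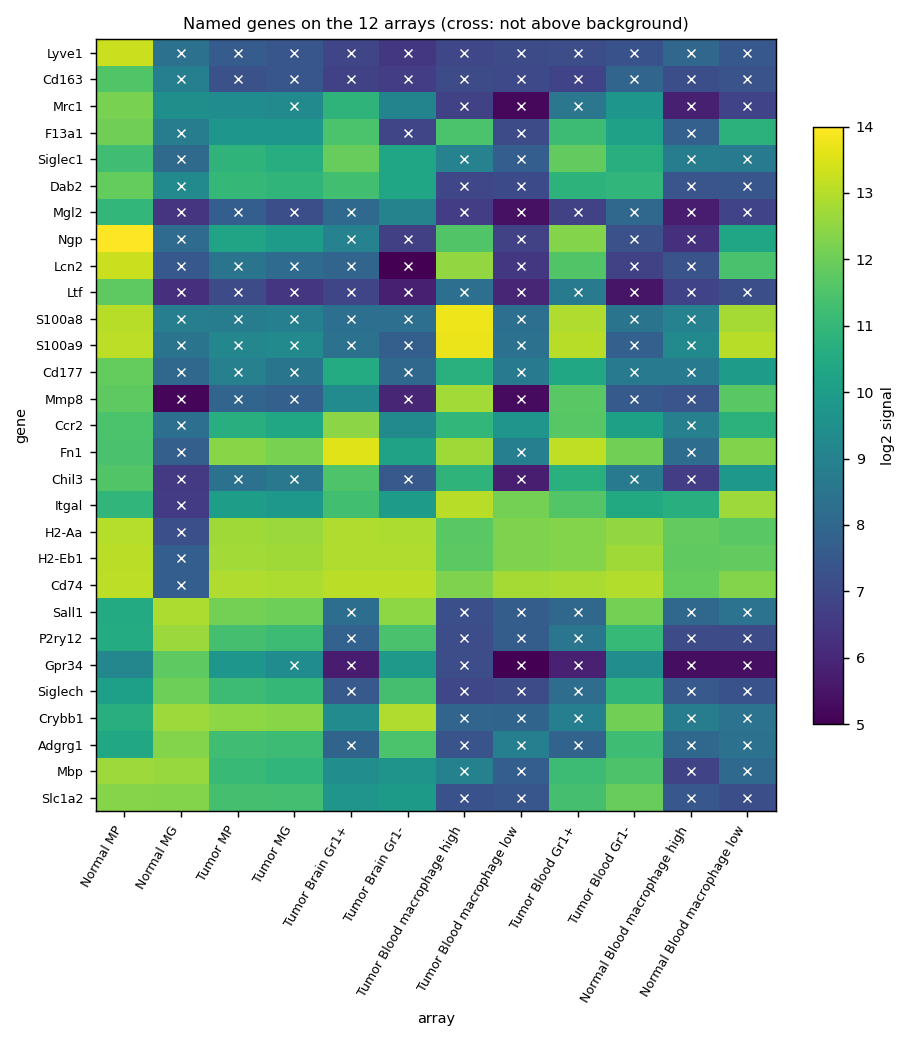
Log2 signal (color scale) of 29 genes (vertical axis) on the 12 arrays (horizontal axis), with normal MP and normal MG in the leftmost columns and a cross where a value is not above the array's background. Lyve1, Cd163 and Ltf are above background on normal MP only, and H2-Aa, H2-Eb1 and Cd74 are below it on normal MG only.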

How the data were processed

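Total RNA of sorted cells was amplified in 2 cycles and hybridised to Affymetrix Mouse Gene 1.0 ST arrays, 1 array per condition. The authors used Affymetrix Expression Console, and RMA is named in the submitters' processing notes. What they deposited is a log2 value of a signal rounded to 0.01 on the linear scale, never under 1, and it was used without further scaling. The annotation release and genome build behind them are not given in the sources used here. Of 28944 probe sets, 21789 had 1 gene symbol in the platform annotation, 1621 had several and 5534 had none. A gene was represented by its brightest probe set over the 12 arrays.

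A gene was called at a log2 difference of at least 1 with the brighter array above its background. With 1 array each there was no test. The number of arrays, and not a read depth, limits the precision. The 41 gene lists and the genes followed were chosen with earlier results of these data known. Named genes were the 12 largest differences each way above background on both arrays, the 12 largest bounds each way above background on 1 array, 5 markers, and up to 6 members of each list by difference after raising dim values to background, with defining members below background. Genes named otherwise are marked as such. One gene of alternative activation is not reported here. Python 3.11.15, pandas 2.3.3 and, for other normalizations, limma 3.58.1 in R 4.3.3 were used.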

Additional observations from a re-analysis of the deposited data

Results flagged for a closer look

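Probe sets without a single gene symbol entered no comparison, and some of them differed between the arrays. Among those with no gene symbol, 103 were at least 2-fold higher on normal MP than on normal MG and 103 were lower, of 1899 above background on MP, MG or both. Among those with several gene symbols, 62 were higher and 50 lower, of 1080 above background. Their log2 differences reached 3.82 and 3.68 in the higher direction and -2.61 and -1.997 in the lower direction. No gene is named from them.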

How the results depend on the processing

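The deposited values had a median log2 difference of -0.22 over all genes. It was -0.10 after centring the arrays on their medians, -0.11 after quantile normalization and -0.01 after cyclic loess normalization, with 799, 728 and 757 genes higher and 204, 266 and 233 lower in MP. A gene's mean over its probe sets gave 633 higher and 278 lower. Fewer genes passed stricter rules. A 4-fold threshold left 247 higher and 18 lower, and only genes above background on both arrays left 110 higher and 172 lower. Raising values under background to it left 266 higher and 201 lower. With no filter on low values, 868 were higher and 620 lower. Of 143 called genes among the 211 chosen for naming, 137 to 143 stayed at least 2-fold in the same direction under the 4 rescalings, and 112 did with values raised to background. Calls were lost by Ctsl, Gp9 and Tlr6 with centring (log2 differences -0.88, -0.89 and -0.93), by Ctsl, Cx3cr1 and Itgb5 with quantile normalization (-0.83, -0.92 and -0.99), and by Apoe, Fcrls, Ftl1, Gp9, Klf6 and Tlr6 with cyclic loess (0.92, -0.998, 0.95, -0.84, 0.96 and -0.94). Cyclic loess also brought the neuronal genes Snap25 and Slc17a7 past 2-fold in MP, at 1.02 each, with Gas6 at 1.17, Ctsd at -1.17, Lgmn at -1.04 and Cd180 at -1.02. Centring brought Ccl6, Gas6, P2rx4 and Stab1 past it (1.12, 1.07, 1.06 and 1.04), and quantile normalization Stab1 (1.09). P2ry14 with cyclic loess and Top2a with the mean of its probe sets lost their calls because the brighter value lay under background. Microglia markers passing as lower numbered 17 to 19 under the rescalings. With values raised, 8 genes near background turned sign because the MP background lies under that of MG: the log2 difference was -0.32 for Ccna2, -0.35 for Ccr7, -0.28 for Kif11, -0.16 for Kit, -0.27 for Klrd1, -0.20 for Mcm5, -0.19 for Oas2 and -0.27 for P2ry14. With values raised, the medians of 13 of 41 lists moved by more than the SD of the olfactory receptor genes. Over members above background, 8 list medians turned sign: to -0.27 for NK cell, -0.16 for mast cell, -0.02 for oligodendrocyte, -0.11 for neuron and -0.11 for cell division genes, -0.02 for transcription factors, -0.24 for inflammatory cytokines and -0.19 for metalloproteinases. Under the 4 rescalings the medians of 9 lists turned sign, all between -0.34 and 0.02 as deposited, and the counts of 7 lists moved by more than 1.5 times, each by 2 genes or fewer. No replicate could be left out, since each group is 1 array.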

Other observations

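Some gene families outside the lists, chosen after their values were seen, held several genes higher in MP. Of 7 measured Ifitm genes, which restrict viral entry, 3 were higher and 0 lower. Ifitm2 had 12.01 in MP and 9.22 in MG, at least 5.97-fold higher, and Ifitm6 had 11.46 in MP and 7.34 in MG, at least 4.08-fold higher. Of 9 Slfn genes 3 were higher, with Slfn2 at 10.96 in MP and 8.58 in MG and Slfn5 at 10.96 in MP and 7.82 in MG. Of 19 genes of the membrane-spanning Ms4a family 4 were higher and 13 lay below background on both arrays. Ms4a4a had 11.70 in MP and 7.90 in MG, at least 4.81-fold higher. Of 29 semaphorins and plexins, the guidance ligands and their receptors, 4 were higher and 1 lower. Plxnd1 had 11.10 in MP and 7.76 in MG, at least 3.17-fold higher, and Plxna4 had 8.87 in MP and 9.95 in MG, at least 1.84-fold lower. Core ribosomal protein genes did not stand out by count. Of 60, 54 were above background, and 5 were higher and 1 lower, so that 9.26% of those above background were higher, against 8.48% of all such genes. Their median log2 difference was 0.53, against -0.22 over all genes. Rpl30 was the lower gene, with 9.12 in MP and 10.87 in MG.

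Single genes chosen after their values were seen add to this. The intermediate filament gene Vim had 12.32 in MP and 7.99 in MG, at least 7.38-fold higher, and Ahnak, a giant scaffold protein, had 12.18 in MP and 7.40 in MG, at least 6.69-fold higher. Igf1, a growth factor gene, had 10.62 in MP and 8.68 in MG, at least 2.28-fold higher. On the lower side, the stem cell antigen gene Cd34 had 9.50 in MP and 11.33 in MG, or 3.57-fold, and the costimulatory ligand gene Cd86 had 9.91 in MP and 11.23 in MG, or 2.49-fold. Glul, glutamine synthetase, had 12.43 in MP and 13.60 in MG and was 2.25-fold lower. Csf1r, the receptor on which macrophages and microglia both depend, had 12.70 in MP and 13.41 in MG, under 2-fold.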
